A study of Mus musculus with 24 samples.

Results

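Naive CD4 T cells of the mouse that had been stimulated for 6 hours were compared with unstimulated naive CD4 T cells by bulk RNA sequencing. The libraries were chosen by their titles, which name 6 as activated naive and 6 as naive, 12 of the 24 libraries of the series. The other 12, of TH1 effector and reactivated TH1 cells, enter a single comparison at the end. All groups share the genotype OT2Nur77GFP+/-, in which the OT-II T cell receptor transgenes, whose receptor recognises an ovalbumin peptide, are combined with an Nr4a1-EGFP/cre reporter transgene on a C57BL/6 background. Naive T cells came from spleens, and sorted cells were used for RNA. The sources used here do not state what stimulated the naive cells, the gate of the sort or the age of the mice, so a sort on the reporter cannot be told from one without it. Libraries of both groups carry the numbers 1 to 6 and were paired by them. Numbers 1 to 3 were sequenced in one run and numbers 4 to 6 in another, by the flow cell named with each library.

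A naive T cell is a small resting cell that circulates through lymphoid organs and depends on interleukin 7 for survival. Engagement of its antigen receptor starts kinase, calcium and RAS signals that act on the NFAT, NF-kB and AP-1 transcription factors. The cell then leaves its resting state, takes up nutrients and builds ribosomes ahead of its first division. Nr4a1, which encodes the nuclear receptor Nur77, is switched on by antigen receptor signals and is widely used to report them.

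Activated naive libraries held 20758549 to 32150758 counts in genes, and naive libraries 18457653 to 27533319. The first principal component separated the groups and held 90.8% of the variance. Levels are in CPM, counts relative to the scaled size of the library. The 7 CD4 T cell markers summed to 2653 to 3847 CPM in activated naive and 3152 to 3518 CPM in naive libraries. Markers of other cells stood far below. The 7 measured B cell markers summed to 0.37 to 0.679 CPM in activated naive and 1.13 to 3.96 CPM in naive libraries. The 11 macrophage and monocyte markers summed to 10.1 to 11.9 CPM in activated naive and 7.68 to 11.3 CPM in naive libraries, with Fcgr1 and C1qa at 0 in all 12. The 9 dendritic cell markers summed to 13 to 17.7 CPM in activated naive and 1.43 to 5.09 CPM in naive libraries, with Xcr1 and Cd209a at 0 in all 12. Cd74, the invariant chain gene of MHC class II, held most of that sum, at 9.87, 11.5 and 13.1 CPM in activated naive libraries and 0.998, 1.998 and 3.89 CPM in naive libraries. The 5 CD8 T cell markers summed to 14.3 to 26.5 CPM in activated naive and 25.2 to 32.2 CPM in naive libraries, and the 8 measured NK and innate-like markers to 0.639 to 1.55 CPM in activated naive and 0.205 to 0.591 CPM in naive libraries. The 9 measured neutrophil and red cell markers summed to 0.0695 to 0.722 CPM in activated naive and 0.19 to 0.405 CPM in naive libraries. The part of such cells in the results below was not tested, and in bulk samples fewer cells of a type and less RNA per cell cannot be told apart.

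After 6 hours most of the genes expressed in these cells differed between the groups. Of 11236 genes tested, 9674 passed (86.1%, edgeR quasi-likelihood test with the number as a block, Benjamini-Hochberg adjusted p under 0.05). In activated naive cells 4744 were higher (42.2%) and 4930 lower (43.9%). Changes of at least 2-fold were found for 2300 genes that rose (20.5%) and 2750 that fell (24.5%), of at least 10-fold for 362 and 556, and of at least 100-fold for 97 and 42. All 6 libraries of one group lay beyond all 6 of the other for 8104 genes (72.1%). Of the genes that passed, 9585 could be tested within each run, and all of these had the same sign in both. With so many genes past the threshold a call alone says little, so sizes are given throughout. Counts within the lists below are to be read against these shares, 42.2% higher and 43.9% lower over all genes tested. Fold changes are log2 values of activated naive over naive cells, with the standard error (SE) over the 6 pairs. Levels are given as the lowest, the median and the highest of the 6 libraries of a group.

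**Figure D1:**
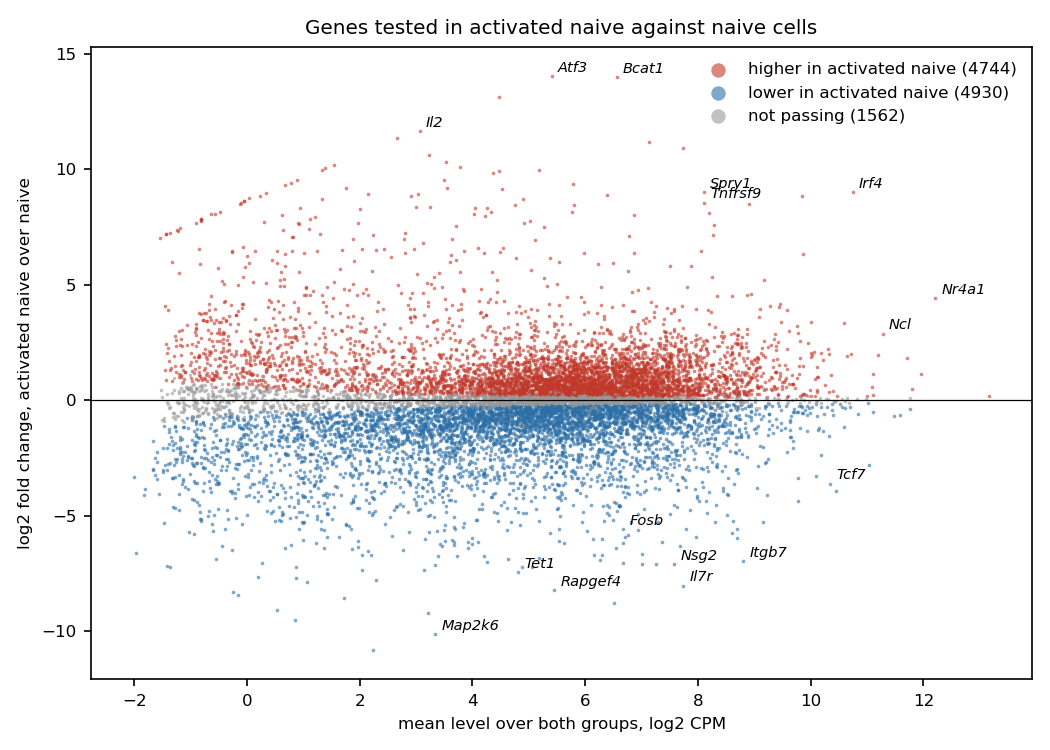
Log2 fold change of activated naive over naive cells (vertical axis) against the mean level in log2 CPM (horizontal axis) for the 11236 genes tested, coloured by call (4744 higher, 4930 lower, 1562 not passing). Fitted changes of genes with no counts in a group, such as Atf3 and Il2, form the streak at the edge and are no bounds.

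Promoters are shown for the gene that drives the reporter and for a cytokine gene that had no counts in naive cells. Each stretch of 190 bases ends 10 bases before the start that the RefSeq promoter table gives for the gene (GRCm38.p6) and is read 5′ to 3′ on the strand of the gene. For Nr4a1 it is chr15:101266646-101266835 on the plus strand, well inside the wider span that GENCODE gives the gene (below), and for Il2 chr3:37125965-37126154 on the minus strand. Capitals mark matches on either strand to GGAAAA, the core bound by NFAT proteins.
Nr4a1: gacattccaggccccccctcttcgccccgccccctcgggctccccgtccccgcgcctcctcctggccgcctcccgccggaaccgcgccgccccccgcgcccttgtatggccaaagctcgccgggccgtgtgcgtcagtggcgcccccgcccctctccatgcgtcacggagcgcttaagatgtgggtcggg
Il2: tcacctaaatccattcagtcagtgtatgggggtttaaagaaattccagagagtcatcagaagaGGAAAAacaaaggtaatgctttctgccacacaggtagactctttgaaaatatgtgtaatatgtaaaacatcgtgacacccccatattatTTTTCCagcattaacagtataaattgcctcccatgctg
The Il2 stretch held 2 matches and the Nr4a1 stretch none. These letters occurred on either strand in 15.7% of 27025 RefSeq promoter stretches of this length. Neither stretch held TGANTCA, an AP-1 site (5.37% of promoters), TGAC followed directly by GTCA, the cyclic AMP response element (1.43%), or CACGTG, the E-box bound by MYC with MAX (4.94%). A match of letters is a description, and no match says only that these letters were not in the window.

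The reporter's gene and its relatives rose steeply. Nr4a1 (chromosome 15, 101254269 to 101274795) had 7115, 7617 and 12850 CPM in activated naive libraries and 239.9, 380.2 and 799 CPM in naive libraries. The groups did not overlap, and it rose 21.6-fold (log2 4.43, SE 0.15, adjusted p = 2.33e-09). Whether transcripts of the transgene add to these counts was not tested. The other two receptor genes of the family were close to silent in naive cells. Nr4a2 had 669.8, 789.5 and 1489 CPM in activated naive libraries and 1.46, 2.43 and 4.75 CPM in naive libraries (log2 8.49, SE 0.18), and Nr4a3 had 313, 555 and 889 CPM in activated naive libraries and 1.69, 1.93 and 2.52 CPM in naive libraries (log2 8.08, SE 0.34).

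Irf4, which encodes a factor whose level follows receptor signal strength (chromosome 13, 30749226 to 30766976), had 2568, 3704 and 3801 CPM in activated naive libraries and 4.64, 7.12 and 8.26 CPM in naive libraries. It rose 515-fold without overlap (log2 9.01, SE 0.18, adjusted p = 6.17e-10). The zinc finger genes Egr2 (log2 7.13, SE 0.12), Egr3 (log2 4.46, SE 0.22) and Egr1 (log2 3.58, SE 0.15), which lie downstream of RAS and calcium signals, rose as well. Zeb2, which encodes a transcriptional repressor, had 10.3, 22.5 and 39.8 CPM in activated naive libraries and 0, 0 and 0.107 CPM in naive libraries (log2 9.51, SE 0.27). Among the EGR, NR4A and other early factors 28 of 32 tested were higher and 3 lower, against 42.2% and 43.9% of all genes tested. Their median was log2 1.96, against -0.03 over all genes. The genes that fell were Klf4 (log2 -2.75, SE 0.38), Klf6 (log2 -1.81, SE 0.28) and Ikzf2 (log2 -0.37, SE 0.08), and Ikzf2 missed the threshold within either run (adjusted p = 0.188 in the first and 0.0611 in the second).

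The AP-1 subunits split into genes that rose and genes that fell, and the classical FOS and JUN genes were among those that fell. Fos had 34.6, 44.6 and 54.1 CPM in activated naive libraries and 396, 705 and 862 CPM in naive libraries (log2 -3.80, SE 0.25, adjusted p = 8.29e-06). Jun had 15.3, 18.7 and 21.3 CPM in activated naive libraries and 431, 517 and 839 CPM in naive libraries (log2 -4.89, SE 0.18, adjusted p = 1.65e-08). Every activated naive library lay below every naive library for both genes. Fosb fell further (log2 -5.58, SE 0.34), and Junb fell less (log2 -1.74, SE 0.16).

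Other members of the family rose. Atf3, a stress-induced factor (chromosome 1, 191170296 to 191218039), had 58.2, 73.5 and 126 CPM in activated naive libraries and no counts in naive libraries. Set against a floor of 3 counts in the naive group, it was at least 4168-fold higher, and Fosl1, which encodes FRA1, was at least 2151-fold higher by the same measure. Fosl2, which encodes FRA2, had 282, 367 and 760.3 CPM in activated naive libraries and 6.51, 7.32 and 10.1 CPM in naive libraries (log2 5.82, SE 0.30, adjusted p = 4.45e-06). Of 13 AP-1 genes tested 7 were higher and 6 lower, each by at least 2-fold, and their median of log2 1.12 turned negative among genes with at least 10 CPM in 6 libraries (-0.351).

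**Figure D2:**
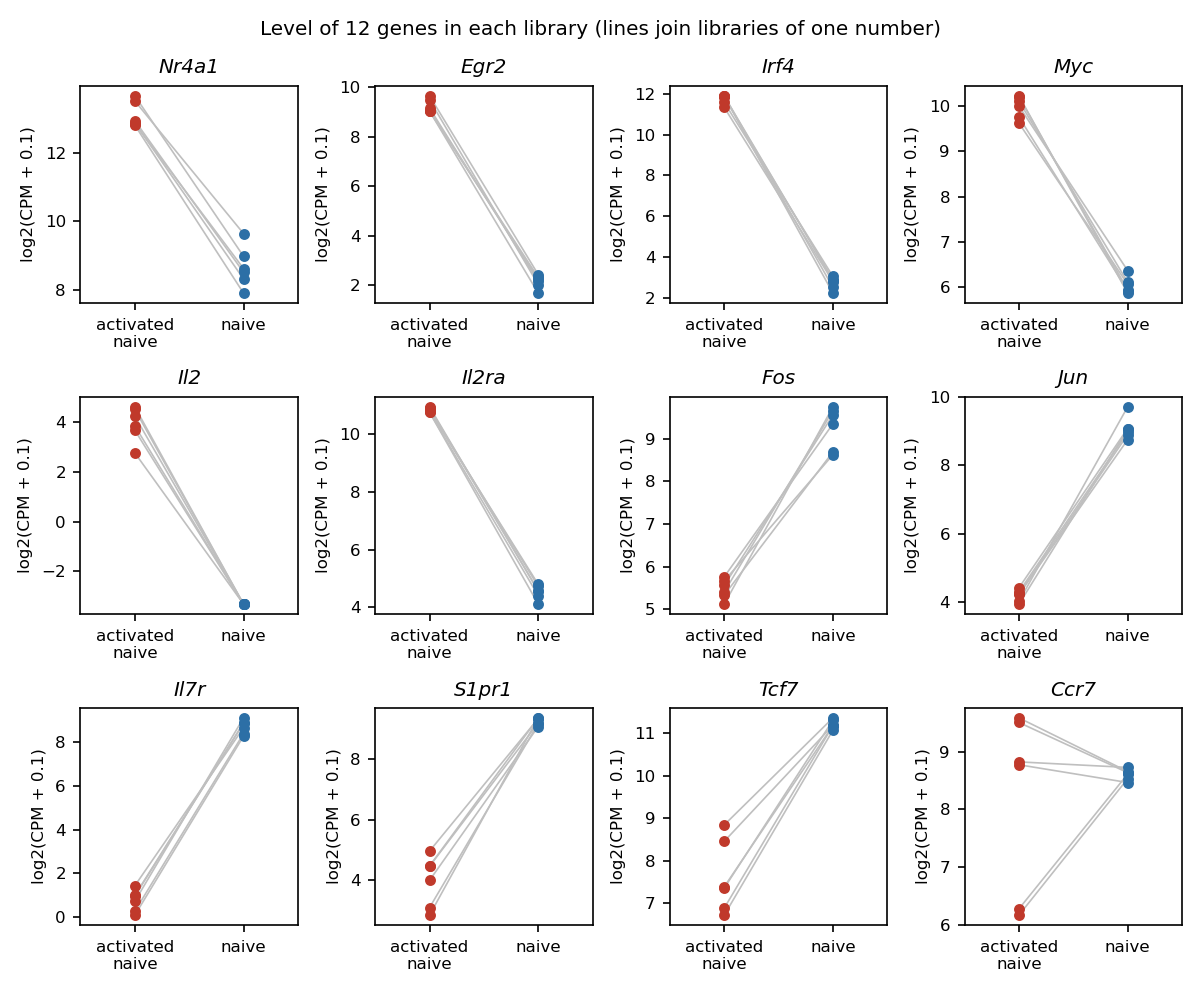
Level of 12 genes in each library as log2(CPM + 0.1), each on an axis of its own, with activated naive libraries (red) left of naive libraries (blue) and lines joining libraries of one number. The groups do not overlap except for Ccr7, where activated naive libraries lie on both sides of the naive ones.

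The 10 largest rises included genes of metabolism, signalling and migration. Bcat1, which encodes the cytosolic branched-chain amino acid transaminase (chromosome 6, 144993835 to 145076184), had 144, 188 and 237.3 CPM in activated naive libraries. It had 1 count over the 6 naive libraries, a ratio of 27470 with a 95% interval of 4930 to 1085000 from counting error alone. Rgs16, which shortens G protein signals, had 334, 439 and 499 CPM in activated naive libraries and 0, 0.149 and 0.515 CPM in naive libraries (log2 10.91, SE 0.54). The sulfotransferase gene Chst2 (log2 11.17, SE 0.54), the chemokine receptor gene Ccr8 (log2 9.97, SE 0.27), the chemokine gene Xcl1 (log2 9.84, SE 0.46) and Npas4 (log2 9.92, SE 0.37), a calcium-responsive factor known from neurons, rose too. Spin4 and Akr1c18 had ratios of 1719 (95% interval 476 to 14200) and 1332 (456 to 6462).

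The 10 largest falls included a kinase, exchange factors, a DNA demethylation enzyme and a cytokine receptor. Map2k6, which encodes a kinase that activates p38 (chromosome 11, 110399122 to 110525522), had at most 0.0399 CPM in activated naive libraries and 18.1, 20.2 and 23.1 CPM in naive libraries, a ratio of 1557 (95% interval 430.5 to 12860). Rapgef4, which encodes an exchange factor that responds to cyclic AMP, had 0.174, 0.284 and 0.439 CPM in activated naive libraries and 76.2, 89.1 and 94.7 CPM in naive libraries (log2 -8.21, SE 0.21). Rasgrp2, which encodes a calcium-responsive exchange factor of RAP1, fell to a similar degree (log2 -7.07, SE 0.16). Tet1, which encodes an enzyme that oxidises methylated cytosine, had 0.0925, 0.262 and 0.619 CPM in activated naive libraries and 51.5, 56.5 and 58.9 CPM in naive libraries (log2 -7.43, SE 0.35). Genes of this list were chosen among those whose groups did not overlap. Nsg2 (log2 -7.11, SE 0.16), Fam101b (log2 -8.76, SE 0.29), Abcg3 (log2 -7.22, SE 0.19), Gm11346 (log2 -7.21, SE 0.38) and Gm14085 (log2 -7.09, SE 0.42) completed the list with Il7r, given below.

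In the antigen receptor complex and its proximal kinases 11 of 31 tested were higher and 18 lower, against 42.2% and 43.9% of all genes. Cd4, the coreceptor gene, had 119.5, 129 and 144 CPM in activated naive libraries and 884, 929 and 989 CPM in naive libraries. It fell 7.11-fold (log2 -2.83, SE 0.03, adjusted p = 1.33e-12), and Cd3d (log2 -0.81, SE 0.04) and Cd3e (log2 -0.32, SE 0.07) of the receptor complex fell less. The 3 largest rises were those of negative regulators, the phosphatase-like gene Ubash3b (log2 3.51, SE 0.07), the phosphatase gene Ptpn22 (log2 2.64, SE 0.02) and the ubiquitin ligase gene Cblb (log2 2.27, SE 0.10). Cd5, an inhibitory receptor whose level follows receptor signal strength, had 1033, 1358 and 1732 CPM in activated naive libraries and 136, 172 and 210.1 CPM in naive libraries and rose 8.09-fold (log2 3.02, SE 0.10). Other genes of the same role fell. The adaptor genes Sla2 (log2 -4.18, SE 0.10) and Sit1 (log2 -3.87, SE 0.08) restrain receptor signals, and Themis (log2 -3.87, SE 0.10) tunes them in the thymus.

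Of 24 genes of calcium entry and NFAT tested, 9 were higher and 12 lower, against 42.2% and 43.9% of all genes. Orai1, the pore gene of the store-operated channel, had 202, 281 and 431 CPM in activated naive libraries and 34, 35.5 and 40.5 CPM in naive libraries (log2 3.0, SE 0.18). Orai2, a related gene whose product damps that channel in mouse T cells, had 32.7, 39.4 and 50.1 CPM in activated naive libraries and 263, 318 and 344 CPM in naive libraries (log2 -2.94, SE 0.16). Neither gene overlapped between the groups, and they moved in opposite directions. Nfatc1 (log2 2.58, SE 0.11) and the calcium pump gene Atp2a2 (log2 1.97, SE 0.06) rose, and the genes of store release channels, Itpr3 (log2 -3.32, SE 0.07) and Itpr2 (log2 -2.98, SE 0.06), fell. Other NFAT genes went both ways, with Nfatc2 and Nfatc3 lower and Nfat5 higher.

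Brakes on the MAP kinase and RAS pathways rose in 16 of 26 tested cases and fell in 8 (median log2 1.34). Of all genes tested, 42.2% rose and 43.9% fell. Spry1, an inhibitor of RAS signals, had 422, 569.5 and 593 CPM in activated naive libraries and 0.75, 0.996 and 1.38 CPM in naive libraries (log2 9.01, SE 0.15, adjusted p = 5.51e-13). The phosphatase gene Dusp4 rose steeply too (log2 8.44, SE 0.40). The genes that fell included Rgs14 (log2 -4.56, SE 0.07), a regulator of G proteins, Rasa3 (log2 -4.54, SE 0.10), which shuts off RAS and RAP1, and the phosphatase gene Dusp10 (log2 -2.68, SE 0.26).

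NF-kB genes were higher in 16 of 28 and lower in 8, against 42.2% and 43.9% of all genes. The subunit genes Rel (log2 3.45, SE 0.13) and Nfkb1 (log2 3.33, SE 0.06) and the protease gene Malt1 (log2 2.88, SE 0.12) rose furthest. Ikbke, a kinase gene of the IKK family, had 26.4, 30.1 and 39.5 CPM in activated naive libraries and 378, 479 and 524 CPM in naive libraries (log2 -3.84, SE 0.14). It fell without overlap, as did the adaptor gene Traf5 (log2 -3.37, SE 0.11). In the MYC network Myc had 789, 1066 and 1200 CPM in activated naive libraries and 58, 63.8 and 82.1 CPM in naive libraries, a 15.5-fold rise (log2 3.95, SE 0.13, adjusted p = 3.12e-10). Its antagonists Mxi1 (log2 -3.78, SE 0.11) and Mxd4 (log2 -3.60, SE 0.22) fell, while the antagonist Mnt rose (log2 0.80, SE 0.115). Over the 10 members tested 4 were higher and 5 lower, against 42.2% and 43.9% of all genes.

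Of 20 factors of helper fates tested, 9 were higher and 9 lower, close to the shares over all genes tested (42.2% and 43.9%). Tbx21, which encodes the TH1 factor T-bet, had 31.1, 38 and 47.5 CPM in activated naive libraries and 0.0492, 0.0843 and 0.208 CPM in naive libraries (log2 8.30, SE 0.27). It lay without overlap above naive levels, and Runx2, a factor of the same family as the T cell regulator RUNX3, rose too (log2 4.72, SE 0.22). Zbtb7b, which fixes the CD4 lineage, had 23.5, 34 and 54.4 CPM in activated naive libraries and 271, 283 and 323 CPM in naive libraries (log2 -3.02, SE 0.20). It fell, as did Stat4 (log2 -2.34, SE 0.10), which relays interleukin 12 signals, and the repressor gene Prdm1 (log2 -1.90, SE 0.14).

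Genes that keep T cells naive or quiescent fell in 26 of 37 cases and rose in 5 (median log2 -1.93). Tcf7, which encodes TCF1, had 106, 165.9 and 459 CPM in activated naive libraries and 2148, 2324 and 2625 CPM in naive libraries. It fell 12.2-fold (log2 -3.61, SE 0.32, adjusted p = 0.000101). Klf2, which drives homing and egress genes, fell (log2 -3.87, SE 0.33), and so did Pik3ip1 (log2 -5.59, SE 0.42), an inhibitor of PI3 kinase. Lef1 (log2 -2.13, SE 0.09) and Foxo1 (log2 -0.81, SE 0.13), further factors of naive cells, fell less. Among the 5 that rose were Bach2 (log2 1.74, SE 0.09), a repressor of effector genes, Tsc2 (log2 0.61, SE 0.04), an inhibitor of mTORC1, and 4632428N05Rik (log2 2.05, SE 0.13), the older name of the checkpoint gene Vsir.

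Of 30 cytokine genes listed 11 passed the filter on low counts, and 5 had no counts in any of the 12 libraries. Il2, the T cell growth factor gene (chromosome 3, 37120523 to 37125959), had 6.71, 16.6 and 24.5 CPM in activated naive libraries and no counts in naive libraries. Against the same floor of 3 counts it was at least 766-fold higher. Lif (log2 6.39, SE 0.26) and Tnf (log2 3.30, SE 0.17) rose, and Il16 (log2 -2.69, SE 0.28), Ltb (log2 -1.64, SE 0.17) and Osm (log2 -1.58, SE 0.14) fell. Ifng, the signature cytokine gene of TH1 cells, stayed under the filter, at 0.234, 0.463 and 0.823 CPM in activated naive libraries and 0, 0.118 and 0.25 CPM in naive libraries.

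Chemokine and chemokine receptor genes were higher in 11 of 14 tested and lower in 2 (median log2 3.62). Cxcr3, which guides T cells to inflamed tissue, had 37.8, 44.4 and 54.9 CPM in activated naive libraries and 0.0357, 0.0735 and 0.11 CPM in naive libraries (log2 9.12, SE 0.22). Ccr9 (log2 -4.14, SE 0.15), a receptor gene of gut homing, and Cxcr4 (log2 -2.93, SE 0.44), a receptor gene of bone marrow homing, were the genes that fell.

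Cytokine receptor chains fell in 16 of 25 cases and rose in 8, against 43.9% and 42.2% of all genes. Il7r, the receptor gene of interleukin 7 (chromosome 15, 9505788 to 9530176), had 0.969, 1.71 and 2.61 CPM in activated naive libraries and 310.5, 436 and 554 CPM in naive libraries. It fell 259-fold (log2 -8.02, SE 0.17, adjusted p = 5.31e-12). Il2ra, the alpha chain gene of the interleukin 2 receptor, had 1747, 1842 and 1988 CPM in activated naive libraries and 17.2, 23.7 and 27.7 CPM in naive libraries, an 80.2-fold rise (log2 6.33, SE 0.09, adjusted p = 6.55e-13). Il2rb, the beta chain gene, rose (log2 3.60, SE 0.28), as did Il12rb2 (log2 4.44, SE 0.15) of the interleukin 12 receptor. Il18r1 (log2 -6.69, SE 0.23) of the interleukin 18 receptor and Tgfbr3 (log2 -4.51, SE 0.08), a coreceptor of TGF-beta, fell.

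Downstream of these receptors 6 of 13 SOCS and JAK genes were higher and 7 lower, against 42.2% and 43.9% of all genes. Socs3, an inhibitor of interleukin 6 type signals, had 3.4, 4.29 and 6.82 CPM in activated naive libraries and 255, 322 and 392.1 CPM in naive libraries (log2 -6.13, SE 0.10, adjusted p = 7.07e-13). It fell without overlap, while the inhibitor genes Cish (log2 2.11, SE 0.23) and Socs1 (log2 1.17, SE 0.20) rose. The kinase gene Jak1 fell (log2 -1.60, SE 0.03) and Jak2 rose (log2 1.44, SE 0.09).

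Receptors that modulate T cell activation rose more often than they fell. Of the CD28, checkpoint and SLAM families 17 of 27 tested were higher and 8 lower, against 42.2% and 43.9% of all genes. Pdcd1, which encodes PD-1, had 112, 184 and 367 CPM in activated naive libraries and 1.21, 1.45 and 1.61 CPM in naive libraries (log2 7.13, SE 0.28). Pdcd1lg2, the gene of its ligand PD-L2, had 52.2, 61.7 and 79.1 CPM in activated naive libraries and 0.107, 0.308 and 0.519 CPM in naive libraries (log2 7.77, SE 0.24). Receptor and ligand thus rose in the same libraries, as did Slamf7 (log2 8.86, SE 0.21). Cd226 (log2 -4.89, SE 0.22) and Cd96 (log2 -3.48, SE 0.09), whose products share a ligand and act in opposite ways, both fell, with the inhibitory receptor gene Cd200r1 (log2 -4.53, SE 0.28).

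In the TNF superfamily 15 of 27 were higher and 8 lower, against 42.2% and 43.9% of all genes. Tnfrsf9, the gene of the costimulatory receptor 4-1BB, had 473, 534 and 655 CPM in activated naive libraries and 0.985, 1.32 and 2.1 CPM in naive libraries (log2 8.55, SE 0.20, adjusted p = 3.06e-11). Tnfsf11, the gene of RANK ligand (log2 6.00, SE 0.09), and Tnfsf4, the gene of OX40 ligand (log2 6.50, SE 0.39), rose too. Tnfrsf25 (log2 -2.19, SE 0.19), a death receptor relative, and Tnfsf10 (log2 -2.90, SE 0.53), the gene of TRAIL, fell, and the call of Tnfsf10 was lost in the second run alone (adjusted p = 0.0818).

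Of 28 homing, egress and adhesion genes tested 15 were lower and 8 higher, against 43.9% and 42.2% of all genes, and several fell far. S1pr1, the gene of the receptor that guides egress from lymphoid organs, had 7.07, 18.8 and 31 CPM in activated naive libraries and 540.5, 618 and 659 CPM in naive libraries (log2 -5.25, SE 0.34, adjusted p = 2.13e-05). Every activated naive library lay below every naive library. Genes of both chains of the gut-homing integrin, Itgb7 (log2 -6.96, SE 0.12) and Itga4 (log2 -5.76, SE 0.30), fell. Cd69, whose product removes S1PR1 from the surface, rose (log2 3.90, SE 0.17).

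Ccr7, the receptor gene of lymph node entry, did not pass (log2 -0.35, SE 0.62, adjusted p = 0.629). Activated naive libraries 1 to 6 had 71.8, 452, 767, 77.5, 437 and 726 CPM, against 353 to 423 CPM in naive libraries. Numbers 1 and 4 lay below every naive library and the other 4 above every naive library.

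**Figure D3:**
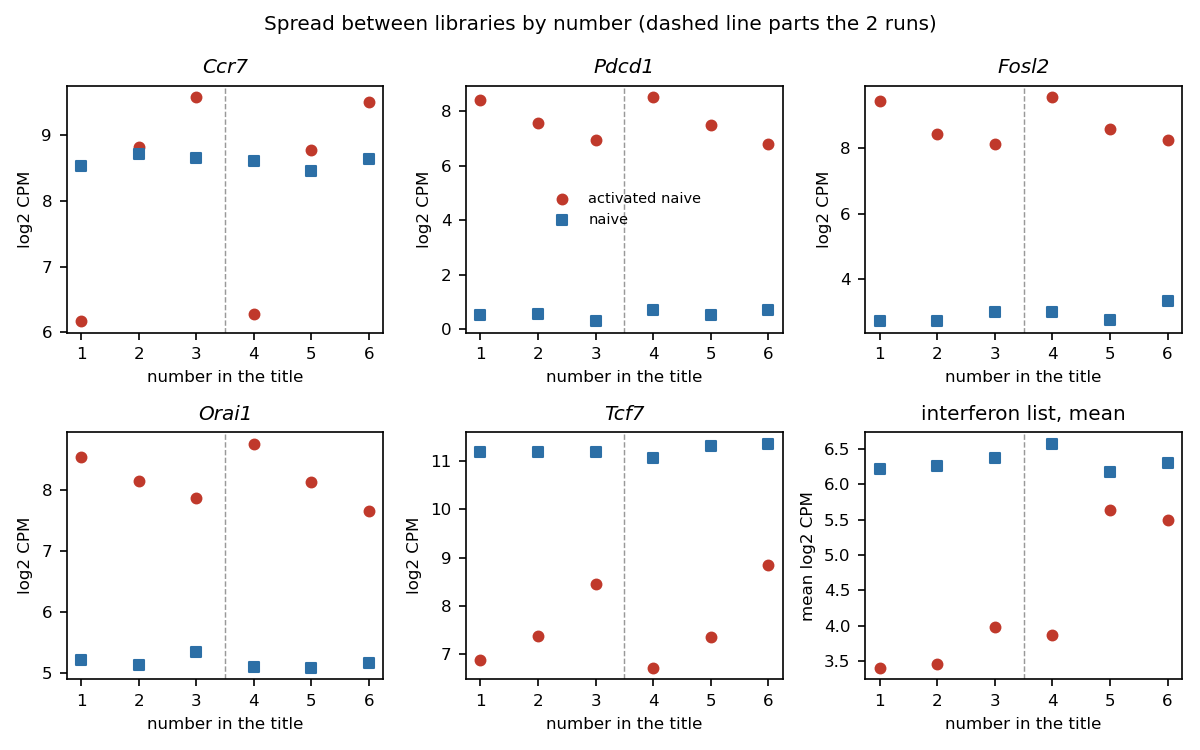
Level by library number in activated naive (red circles) and naive libraries (blue squares), in log2 CPM, for 5 genes and for the mean of the interferon list, with a dashed line between the runs. In activated naive libraries Ccr7 and Tcf7 were lowest in numbers 1 and 4 and highest in numbers 3 and 6, Pdcd1, Fosl2 and Orai1 the reverse, and the interferon list was highest in numbers 5 and 6.

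Activated naive libraries also differed among themselves in other genes, which were chosen after their values were seen. Pdcd1 had 344, 189, 123, 367, 179 and 112 CPM in activated naive libraries 1 to 6. Fosl2 had 696, 344, 282, 760.3, 389.9 and 304 CPM in the same order. Both were highest in numbers 1 and 4 and lowest in numbers 3 and 6, whereas Gata3, a factor of the TH2 fate, ran the other way with 8.42, 30.3, 39.4, 7.83, 31.7 and 41.8 CPM in activated naive libraries and 54.6 to 66 CPM in naive libraries. Over all genes tested, deviations of activated naive libraries from the mean of their run had r = 0.231 between numbers 1 and 4. Values were r = 0.453 between numbers 3 and 6, -0.325 between numbers 1 and 6 and -0.338 between numbers 3 and 4. Between numbers 2 and 5 r was -0.0162. Both lay between the other numbers of their run for Pdcd1, Fosl2 and Gata3, so an r near 0 there decides nothing. Naive libraries of unlike numbers reached similar values across runs, with r = 0.258 between numbers 1 and 6 and r = 0.242 between numbers 2 and 4. The lowest r of naive libraries was -0.354, between numbers 1 and 4. An r of 0.231 is thus not particular to activated naive libraries. These are Pearson correlations across genes, which are not independent replicates, and the source of this spread was not tested.

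Genes that build ribosomes rose almost without exception. Of the 61 genes of ribosome biogenesis and RNA polymerase I 60 were higher, 55 of them at least 2-fold (median log2 2.12). Polr1b, a core subunit gene of that polymerase, had 357, 369 and 417 CPM in activated naive libraries and 41.5, 43.1 and 47.2 CPM in naive libraries (log2 3.13, SE 0.03, adjusted p = 9.52e-13). The ribosome assembly gene Grwd1 (log2 3.34, SE 0.08) and the nucleolar GTPase gene Gnl3 (log2 3.16, SE 0.04) rose alike. Ubtf, which encodes a factor that binds ribosomal DNA, was the exception (log2 -0.74, SE 0.08).

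Genes of the ribosomal proteins themselves, many of which have near-identical pseudogene copies that can take reads, showed no such rise. Of 80 tested 25 were higher and 35 lower, against 42.2% and 43.9% of all genes. Their median was log2 -0.06, with an interquartile range of log2 -0.28 to 0.18. Rps2 had 1446, 1899 and 2010 CPM in activated naive libraries and 709, 854 and 1015 CPM in naive libraries (log2 1.08, SE 0.10). The 2 largest rises were those of variants, Rps27l (log2 1.92, SE 0.06) and Rpl7l1 (log2 1.79, SE 0.05).

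Most translation genes rose. Initiation factors were higher in 39 of 52 and lower in 8, and aminoacyl-tRNA synthetases higher in 22 of 23, with Qars alone lower (log2 -0.25, SE 0.03). Aars, the alanine enzyme gene, had 534, 597 and 656 CPM in activated naive libraries and 77.8, 83.4 and 108 CPM in naive libraries (log2 2.78, SE 0.11). Eif4ebp1, an inhibitor of cap-dependent initiation, rose furthest among the initiation genes (log2 3.94, SE 0.18), followed by Eif1a (log2 2.61, SE 0.07). Eif4e3, which encodes a variant cap-binding protein, fell (log2 -3.60, SE 0.07) where its relative Eif4e rose (log2 2.07, SE 0.07).

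Amino acid transporters were higher in 17 of 21 and lower in 3. Slc7a5, the gene of a transporter of large neutral amino acids, had 786, 869 and 1048 CPM in activated naive libraries and 27.6, 37.5 and 53.4 CPM in naive libraries (log2 4.56, SE 0.16, adjusted p = 7.82e-09). Slc1a4 (log2 5.03, SE 0.19), of a transporter of small neutral amino acids, and Slc7a11 (log2 8.34, SE 0.38), of the cystine importer, rose. Slc36a1 (log2 -1.84, SE 0.07) and Slc38a9 (log2 -1.76, SE 0.08), transporters of the lysosome membrane, fell, as did Slc43a2 (log2 -3.15, SE 0.11).

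Most genes of polyamine synthesis and of serine and one-carbon metabolism rose. Odc1, the rate-limiting enzyme gene of polyamine synthesis, had 885, 947 and 1023 CPM in activated naive libraries and 35.4, 38 and 45.8 CPM in naive libraries (log2 4.62, SE 0.07, adjusted p = 7.2e-13). Srm, the spermidine synthase gene, rose as well (log2 3.77, SE 0.07), and 10 of 12 polyamine genes were higher and 2 lower. In serine and one-carbon metabolism 13 of 21 were higher and 6 lower. Psat1, of serine synthesis, had 546, 584 and 668 CPM in activated naive libraries and 11.6, 15.3 and 16.8 CPM in naive libraries (log2 5.32, SE 0.08), and the enzyme genes Shmt1 (log2 6.36, SE 0.21) and Shmt2 (log2 4.07, SE 0.09), which move serine carbon to folate, rose too.

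Nucleotide synthesis genes were higher in 23 of 33 and lower in 9. Ctps, which makes CTP, had 166.9, 179 and 191 CPM in activated naive libraries and 22.1, 24.2 and 28 CPM in naive libraries (log2 2.87, SE 0.07). Its relative Ctps2 had 13.7, 16.2 and 18.6 CPM in activated naive libraries and 97.1, 114 and 123 CPM in naive libraries (log2 -2.81, SE 0.10). The paired genes moved apart by a similar amount, and the ribonucleotide reductase gene Rrm2b fell (log2 -2.26, SE 0.13).

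**Figure D4:**
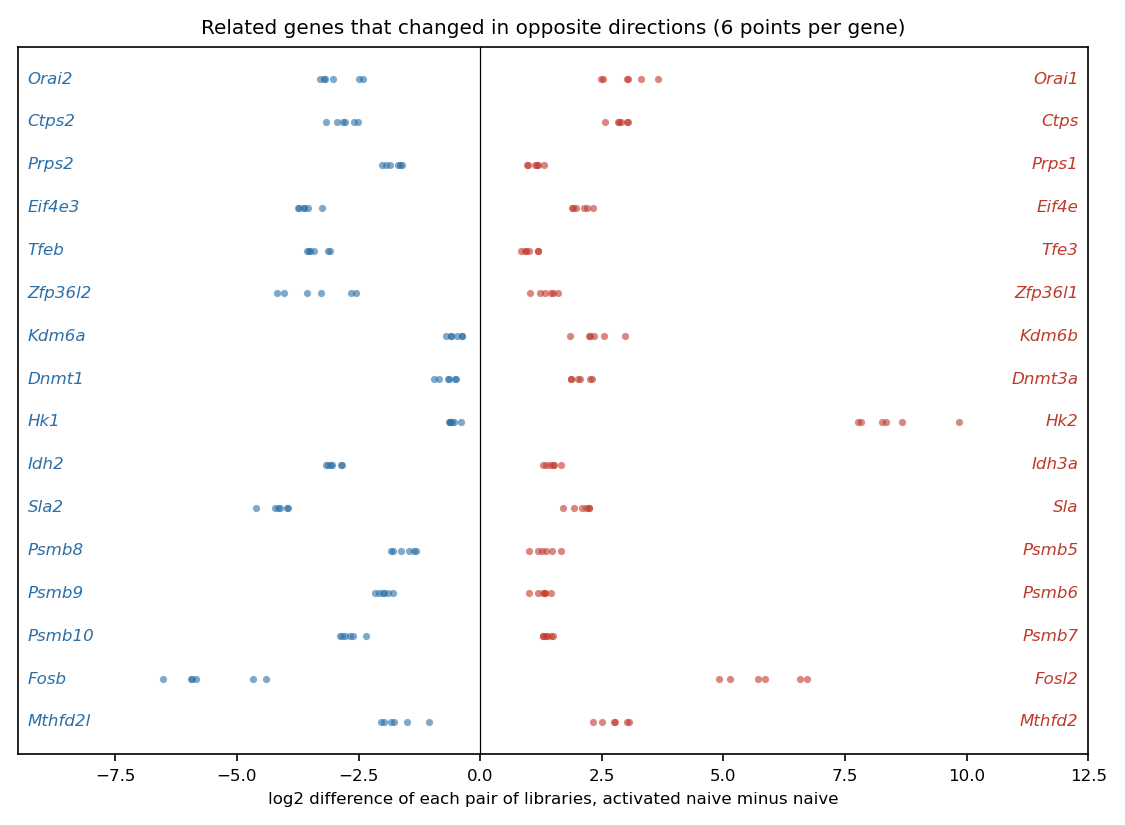
Log2 difference of each pair of libraries, activated naive minus naive (horizontal axis), for 16 pairs of related genes that moved in opposite directions and were chosen after their values were seen, with 6 points per gene. All points of each gene named in red lie above 0 and all points of each gene named in blue lie below 0.

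Among genes of glucose use, 17 of 33 tested were higher and 13 lower, against 42.2% and 43.9% of all genes. Hk2, the inducible hexokinase gene, had 51, 57.9 and 68.5 CPM in activated naive libraries and 0.0343, 0.163 and 0.208 CPM in naive libraries (log2 8.70, SE 0.31, adjusted p = 2e-12). Hk1, the constitutive one, fell slightly (log2 -0.57, SE 0.04). The lactate transporter genes Slc16a1 (log2 3.31, SE 0.05) and Slc16a3 (log2 4.57, SE 0.09) rose. Pdk1, whose product restrains pyruvate entry into mitochondrial metabolism, had 30.1, 40.2 and 56.8 CPM in activated naive libraries and 652, 676 and 794 CPM in naive libraries (log2 -4.11, SE 0.14). It fell without overlap, as did its relative Pdk2 (log2 -4.15, SE 0.28) and the phosphofructokinase gene Pfkm (log2 -3.19, SE 0.22).

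Most mitochondrial genes rose. Respiratory chain genes were higher in 53 of 73 and lower in 14 (median log2 0.48). Mitochondrial ribosomal protein genes were higher in 60 of 76 and lower in 7 (median log2 0.68). Import genes were higher in 30 of 34 and lower in 1 (median log2 1.005), led by Chchd4 (log2 2.94, SE 0.07), of the intermembrane space. Cycs, which encodes cytochrome c, rose (log2 2.12, SE 0.06), and Cox7a2l, an assembly factor gene of respiratory supercomplexes, fell (log2 -2.51, SE 0.04). TCA cycle genes were higher in 18 of 28 and lower in 7, against 42.2% and 43.9% of all genes. The isocitrate dehydrogenase genes split, with Idh3a higher (log2 1.46, SE 0.05) and Idh1 (log2 -3.04, SE 0.21) and Idh2 (log2 -3.02, SE 0.06) lower.

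Fatty acid oxidation genes were lower in 18 of 27 and higher in 5 (median log2 -1.05). Cpt1a, which admits fatty acids to mitochondria, had 10.5, 11.9 and 20.5 CPM in activated naive libraries and 65.1, 88.6 and 108 CPM in naive libraries (log2 -2.74, SE 0.21). Cholesterol and fatty acid synthesis genes were higher in 23 of 41 and lower in 14, against 42.2% and 43.9% of all genes. Fasn, the fatty acid synthase gene, rose (log2 2.38, SE 0.09), with Idi1 (log2 2.26, SE 0.10) and Cyp51 (log2 2.22, SE 0.10) of sterol synthesis. The cholesterol exporter genes Abca1 (log2 -5.25, SE 0.21) and Abcg1 (log2 -3.72, SE 0.15) and the acetyl-CoA synthetase gene Acss2 (log2 -5.01, SE 0.23) fell.

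**Figure D5:**
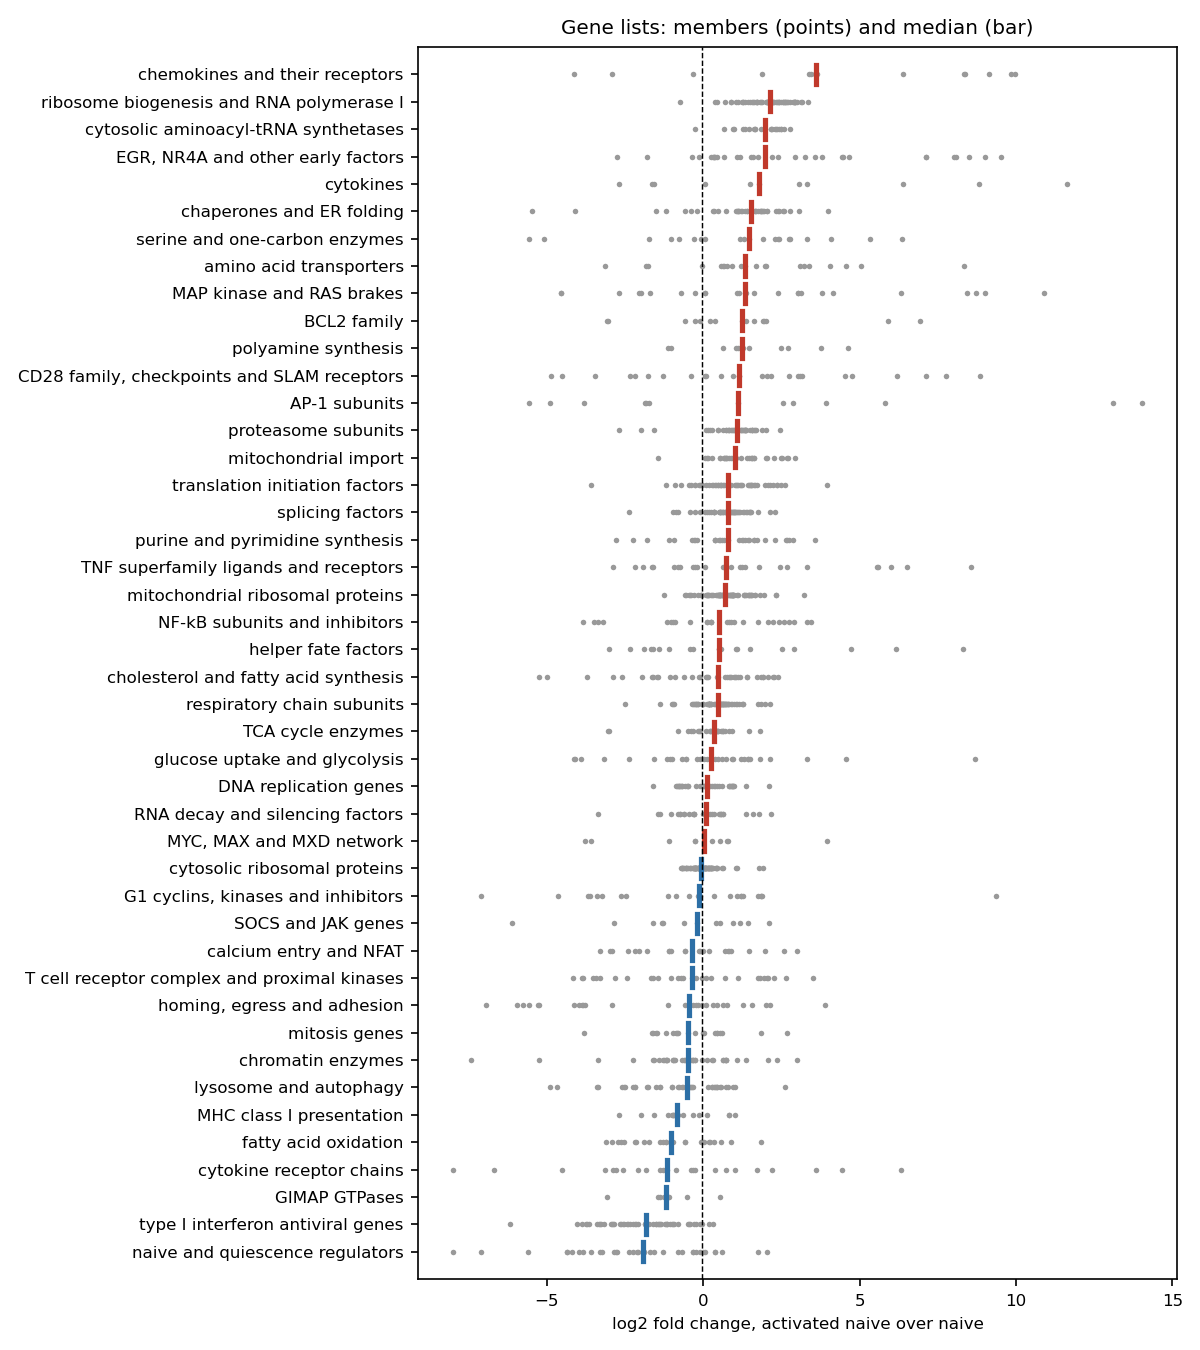
Log2 fold change of activated naive over naive cells (horizontal axis) for the tested members of 44 gene lists (grey points), with the median of each list as a bar, red above 0 and blue below, and a dashed line at the median of all genes tested (-0.03). Ribosome biogenesis lies almost wholly to the right of the line, naive regulators and interferon genes mostly to its left, and ribosomal proteins close to it.

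Most genes of protein folding and degradation rose. Chaperones were higher in 37 of 44 and lower in 7 (median log2 1.53). Hspa4l, an HSP110 family gene, had 276, 325 and 408 CPM in activated naive libraries and 16.9, 21.1 and 26 CPM in naive libraries (log2 3.99, SE 0.09), while the heat-inducible gene Hspa1b fell (log2 -5.47, SE 0.50). Proteasome genes were higher in 41 of 46 and lower in 3. The genes that fell encode the catalytic subunits of the immunoproteasome, Psmb8 (log2 -1.57, SE 0.09), Psmb9 (log2 -1.98, SE 0.05) and Psmb10 (log2 -2.69, SE 0.08). The genes of the standard subunits that they replace rose, Psmb5 (log2 1.33, SE 0.09), Psmb6 (log2 1.26, SE 0.06) and Psmb7 (log2 1.38, SE 0.03).

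MHC class I presentation genes, a list that shares those 3 subunits, were lower in 13 of 17 and higher in 3. Erap1, which trims peptides (log2 1.01, SE 0.07), and Psme1 (log2 0.81, SE 0.07) and Psme2 (log2 0.81, SE 0.05), of the proteasome activator, were the genes that rose. Lysosome and autophagy genes were lower in 29 of 44 and higher in 15, against 43.9% and 42.2% of all genes (median log2 -0.53). Lipa, the acid lipase gene, had 5.54, 7.18 and 12.1 CPM in activated naive libraries and 197, 233.6 and 282 CPM in naive libraries (log2 -4.92, SE 0.11). Tfeb, a regulator of lysosome genes, fell (log2 -3.39, SE 0.09) where its relative Tfe3 rose (log2 1.01, SE 0.06).

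Of 24 G1 genes tested 11 were higher and 11 lower, close to the shares over all genes tested (42.2% and 43.9%), and single genes moved far. Cdkn1a, which encodes the inhibitor p21, had 76.9, 110.5 and 154 CPM in activated naive libraries and 0.0475, 0.139 and 0.295 CPM in naive libraries (log2 9.36, SE 0.30, adjusted p = 7.1e-13). The kinase gene Cdk6 (log2 1.88, SE 0.11) and the cyclin gene Ccnd2 (log2 1.08, SE 0.09) rose, and Ccnd3 fell (log2 -1.15, SE 0.06). E2f2, a repressor of cell cycle entry in mouse T cells, had 0, 0.0575 and 0.435 CPM in activated naive libraries and 14.7, 20.9 and 21.9 CPM in naive libraries (log2 -7.11, SE 0.55). The inhibitor gene Cdkn2d (log2 -4.66, SE 0.04) and Rbl2 (log2 -3.70, SE 0.16), of the retinoblastoma family, fell with it.

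DNA replication genes were higher in 17 of 40 and lower in 15, close to the shares over all genes tested (42.2% and 43.9%). Mitosis genes were higher in 4 of 21 and lower in 9, against the same shares. Uhrf1, which maintains DNA methylation at replication, rose (log2 1.36, SE 0.16), and Rpa1, of the single-strand binding complex, fell (log2 -1.59, SE 0.03). Mki67, the proliferation marker, had 0.0925, 0.149 and 1.94 CPM in activated naive libraries and 0.685, 0.888 and 1.24 CPM in naive libraries. The groups overlapped, because activated naive number 6 stood above every naive library. It passed (log2 -1.51, SE 0.53, adjusted p = 0.0164), but not without the block (adjusted p = 0.0679), in the second run alone (0.331) or without number 1 (0.0535).

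BCL2 family genes were higher in 9 of 15 and lower in 4, against 42.2% and 43.9% of all genes. Bcl2a1d (log2 6.92, SE 0.16) and Bcl2a1b (log2 5.91, SE 0.10), survival genes so alike that reads may be shared, rose, and so did the death gene Bax (log2 2.01, SE 0.07). The death genes Bmf (log2 -3.08, SE 0.38) and Bad (log2 -3.04, SE 0.10) and the survival gene Mcl1 (log2 -0.60, SE 0.04) fell.

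Splicing factor genes were higher in 45 of 54 and lower in 6 (median log2 0.79). Snrpd1, of the spliceosome core, rose furthest (log2 2.28, SE 0.06), and Celf2, a regulator of alternative splicing, fell furthest (log2 -2.39, SE 0.09). RNA decay and silencing genes were higher in 13 of 31 and lower in 14, close to the shares over all genes tested (42.2% and 43.9%). Zfp36l2, which marks transcripts for decay, had 99.6, 160.3 and 223 CPM in activated naive libraries and 1072, 1710 and 1920 CPM in naive libraries (log2 -3.38, SE 0.28). It fell without overlap, while its relative Zfp36l1 rose (log2 1.35, SE 0.09).

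Chromatin enzymes were lower in 29 of 44 and higher in 13, against 43.9% and 42.2% of all genes. The histone demethylase genes Kdm2b (log2 2.99, SE 0.08) and Kdm6b (log2 2.37, SE 0.15) and the DNA methyltransferase gene Dnmt3a (log2 2.06, SE 0.07) rose. After Tet1, given above, the remodeller gene Smarca2 fell (log2 -3.38, SE 0.09), as did Mll3 (log2 -2.26, SE 0.06), the older name of the methyltransferase gene Kmt2c. GIMAP GTPase genes, which support lymphocyte survival, were lower in 7 of 8, and Gimap5 was higher (log2 0.54, SE 0.08).

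Most type I interferon response genes fell, and activated naive libraries differed in how far. Of 56 tested 45 were lower and none higher, with 11 not passing (median log2 -1.85, edgeR). Averaged over the list, the level stood at log2 CPM of 3.41, 3.46, 3.98, 3.87, 5.63 and 5.49 in activated naive libraries 1 to 6, against 6.21, 6.26, 6.36, 6.57, 6.16 and 6.29 in naive libraries 1 to 6. Numbers 5 and 6 of the activated naive cells thus stood nearest to the naive ones. Without these numbers 53 of 56 were lower (median log2 -2.59), and in the second run alone, which holds both, 15 of 57 were lower (median log2 -1.17). Isg15, which encodes an antiviral ubiquitin-like protein, had 14, 17.4, 23.5, 24.1, 108 and 79.7 CPM in activated naive libraries 1 to 6 and 27.1 to 38.8 CPM in naive libraries, and did not pass (adjusted p = 0.95). Irf7, which amplifies the interferon response, had 18.1, 20.1, 27.7, 26.3, 117 and 97.8 CPM in activated naive libraries 1 to 6 and 171 to 268 CPM in naive libraries. Ifit3, an antiviral gene, passed over all pairs (log2 -4.05, SE 0.92, adjusted p = 0.00916) but not in the second run alone (adjusted p = 0.144).

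The response of naive cells was set against that of TH1 effector cells restimulated with antigen-pulsed macrophages, for 8 genes. The stimulus of the naive cells is not named, so the stimuli cannot be told apart from the cell types, and the share of macrophage RNA in the TH1 libraries was not tested. In a fit over all 24 libraries with the number as a block, the responses differed for 8620 of 12584 genes (68.5%). Nr4a1 (log2 difference of responses 3.31, adjusted p = 5.98e-05), Myc (3.62, adjusted p = 4.52e-14), Tnfrsf9 (6.62, adjusted p = 4.18e-19) and Egr2 (0.93, adjusted p = 0.000627) rose further in naive cells. Il7r (-5.96, adjusted p = 6.71e-15) and Jun (-3.44, adjusted p = 1.28e-11) fell further in naive cells. For Myc the difference arose beside a high resting level in TH1 cells, with unscaled medians of 1037 CPM in activated naive, 67.2 in naive, 589 in reactivated TH1 and 492 in TH1 effector libraries. Tnfrsf9 too was already expressed in resting TH1 cells, with 504 CPM in activated naive, 1.4 in naive, 1536 in reactivated TH1 and 454 in TH1 effector libraries. Nr4a1 had 7364 CPM in activated naive, 399 in naive, 559.6 in reactivated TH1 and 307 in TH1 effector libraries. Its level after stimulation was thus highest in activated naive libraries. Jun was lower after stimulation in both cell types, with medians of 17.7 CPM in activated naive, 544 in naive, 50.7 in reactivated TH1 and 142 in TH1 effector libraries. Ifng rose further in TH1 cells (-4.08, adjusted p = 0.00502), with 0.437 CPM in activated naive, 0.124 in naive, 11640 in reactivated TH1 and 212 in TH1 effector libraries. Il2 had 15.6 CPM in activated naive, no counts in naive, 379.6 CPM in reactivated TH1 and 0.0684 CPM in TH1 effector libraries. The difference of its responses did not pass in the edgeR fit (-0.83, adjusted p = 0.782), but passed under an alternative. With no counts in naive cells the size of that difference is uncertain. The edgeR call of Egr2 was lost in the second run alone (adjusted p = 0.128).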

How the data were processed

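Bulk RNA was sequenced after preparation with a stranded kit, per the labels' protocols. The deposited values are whole-number read counts per gene, and the submitters' processing notes list STAR, HTSeq, DESeq2 and the mouse build mm10. Those notes, as passed on here, give no versions, annotation or strand setting. In each library the rows that name no gene (no feature, ambiguous, not unique) held on average 30.1% of all counts and were left out. The run was read from the flow cell named with each library.

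Over the 12 libraries, edgeR 4.0.16 (R 4.3.3) was applied to the 23420 genes, with filtering by expression (11236 kept), TMM scaling, robust quasi-likelihood fits, terms for group and number, and Benjamini-Hochberg adjustment. The procedure was tested on counts simulated from the naive libraries, with few genes changed and no differences between numbers. That test covers neither the pairing nor the scaling where most genes change. The standard error is that of the 6 paired log2 CPM differences. The numbers come from the titles. Deviations of the libraries with the same number from their group means correlated over genes at r = 0.136 to 0.324, above 0.1 in all 6 pairs, and numbers were taken as pairs. Within runs the values were 0.115 to 0.336, again above 0.1 in all 6, and 4 of 6 numbers matched their own number best. Xist had 1105 to 1977 CPM in numbers 2, 3 and 4 of both groups and at most 0.194 CPM in numbers 1, 5 and 6. Ddx3y had 125 to 237 CPM in numbers 1, 5 and 6 of both groups and at most 0.0695 CPM in numbers 2, 3 and 4. By these sex-linked genes the numbers come from both sexes, spread unevenly over the runs. No 2 libraries agreed within counting noise (lowest chi-square per degree of freedom 9.21). The titles do not say that numbers are separate mice, so what p-values measure is library-to-library spread, which may be technical, and counting intervals cover counting error only.

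Members and lists were chosen with earlier results of these data known. Argonaute genes were dropped from the initiation factors after values were seen. Named genes were the 10 largest changes each way among genes whose higher group averaged 20 CPM or more and whose groups did not overlap, up to 3 each way per list with at least 5 CPM, and textbook genes of T cell activation. Eif4e, Hk1, Psmb5, Psmb6, Psmb7, Isg15, Gata3, Irf7, Nfatc2, Nfatc3 and Nfat5 were named outside this rule after their values were seen. Overlaps of Nfatc2, Nfatc3 and Nfat5 with other genes were not checked. Results for some items are not reported here. Alternatives were DESeq2 1.42.0, limma-voom (limma 3.58.1), other scalings, filters and sample sets, and each number left out.

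Gene coordinates and overlaps are those of GENCODE vM21 (GRCm38), and promoters those of RefSeq for GRCm38.p6. Without a stated strand setting, counts are uncertain where a gene overlaps one on the opposite strand, here Fosl1, Xcl1, Themis, Dusp10, Runx2, Zbtb7b, Tsc2, Il2, Il16, Ccr9, Il12rb2, Jak1, Tnfrsf9, Pdcd1lg2, Itga4, Gnl3, Rps2, Shmt1, Shmt2, Ctps2, Pfkm, Psmb9, Cyp51, Acss2, Rbl2, Bad, Kdm2b, Smarca2, Erap1, Psme1, Junb, Ccnd2 and Ccnd3. They are also uncertain where genes overlap on the same strand (Zeb2, Traf5, Gnl3, Rps2, Aars, Slc43a2, Cd74) and for near-identical copies, such as ribosomal protein, Bcl2a1, MHC class I, interferon-induced and Hspa1 genes.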

Additional observations from a re-analysis of the deposited data

Results flagged for a closer look

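Among 525 groups of 6 libraries examined over the named genes reported here, 17 held a library that stood far from the other 5, by Dixon's test on the gap over the range, by which chance alone flags about 5% of groups. In activated naive cells, number 6 was highest for Nsg2 (4.4 CPM, others 2.29 to 2.74), Gimap7 (4.16, others 2.44 to 2.92) and Mki67 (1.94, others 0.0925 to 0.243), and lowest for Snrpa (166.1 CPM, others 181 to 191). Number 1 was lowest for Spry1 (422 CPM, others 552 to 593) and highest for Uhrf1 (10.4, others 6.97 to 7.63), and number 4 was highest for Tnf (506 CPM, others 240.1 to 306).

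In naive cells, number 1 was highest for Jun (839 CPM, others 431 to 541) and Tsc2 (90.4, others 80.2 to 82.3), and lowest for Psme3 (121, others 129 to 133) and Kif23 (7.43, others 9.46 to 9.87). Number 5 was highest for Themis (303 CPM, others 227 to 252) and lowest for Traf5 (25.3, others 29.7 to 31.8), E2f2 (14.7, others 20.1 to 21.9) and Ifit3 (53.9, others 82.7 to 106). Number 3 was lowest for Psmb10 (121 CPM, others 146 to 154), and number 6 lowest for Ptpn22 (163.7, others 180 to 190).

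In the edgeR fit over all 24 libraries the response of naive cells differed from that of TH1 cells for 8620 of 12584 genes (68.5%). Among the genes compared by name above, 7 passed and Il2 did not, so passing does not set these 7 apart from most genes. The log2 differences of the responses, naive minus TH1, were -4.08 for Ifng, 3.31 for Nr4a1, 3.62 for Myc, 6.62 for Tnfrsf9, -5.96 for Il7r, -3.44 for Jun and 0.93 for Egr2.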

How the results depend on the processing

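Over 18 alternatives the number of genes changed stayed within 1.5 times the 9674 reported, between 7520 (at least 10 CPM in 6 libraries) and 10538 (no filter on low counts), and between 9350 and 9649 with 1 number left out. Without the replicate block 9669 genes passed, and among the named genes Mki67 was the one whose call was lost with the pairing by number removed. Scaling by library size alone moved the median of all genes by -0.15 and gave 4225 higher and 5491 lower. Of 279 called named genes, 272 kept their call and direction under every alternative that could test them, and 7 (Ikzf2, Mxd1, Tnfsf10, Eif2ak2, Ifit3, I830012O16Rik and Mki67) lost it under some. Ccr7, which did not pass, changed sign to 0.115 without the block, to 0.135 in all 24 libraries without the block, and ranged over -0.642 to 0.0633 with 1 number left out. Medians of 4 lists also changed sign. That of AP-1 subunits (1.12 in the fit as reported) was -0.351 with at least 10 CPM. That of SOCS and JAK genes (-0.20) was 0.125 in all 24 libraries, 0.128 there without the block and 0.0934 without a filter. That of DNA replication genes (0.10) was -0.0488 by library size and -0.00928 with at least 10 CPM, and that of mitosis genes (-0.48) 0.0327 in all 24 libraries and 0.0366 there without the block. The cause was not tested. Genes under the filter, such as Ifng, have no call in the fit of the 12 libraries as reported.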

Other observations

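Cxcl10, which encodes a chemokine induced by interferons, had 7.88, 8.93, 10.7, 8.15, 41.5 and 33.2 CPM in activated naive libraries 1 to 6, against 0.678 to 3.79 CPM in naive libraries. Numbers 5 and 6 of the activated naive libraries, which were also highest in the interferon list, stood above the other 4.

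Slc15a2, a peptide transporter gene, varied with the number in both groups and did not pass the test of stimulation (edgeR, log2 0.01, adjusted p = 0.932). It had 64, 66.5, 35.8, 144, 0.925 and 80 CPM in activated naive libraries 1 to 6 and 57.6, 81.8, 40.2, 134, 0.541 and 71.7 CPM in naive libraries 1 to 6. Number 5 was near 0 in both groups and number 4 highest in both.

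Genes that rose at least 2-fold were shorter than those that fell at least 2-fold, by the span of the gene in RefSeq. The median span was 17.5 kb for those higher and 24.7 kb for those lower, against 21.9 kb over all genes tested, with a span matched for 94.3%, 92.4% and 93.3% of them. This is a description without a test.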
